A study of Mus musculus with 14 samples.

Results

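The 10 genes described here encode granule proteins and surface receptors by which neutrophils are known, and were followed through sorted leukocytes and bulk liver of the mouse. They are S100a8, S100a9, Retnlg, Mmp8, Mmp9, Camp, Ngp, Csf3r, Cxcr2 and Ly6g, chosen by symbol and not by their values, and all 10 were matched by Ensembl ID among the 48794 genes of the count table. The samples came from livers of wild-type (WT) mice that had received no treatment. For 12 libraries, cells carrying CD45, a surface phosphatase of leukocytes, had been sorted by flow cytometry out of liver needle biopsies at 2500, 5000, 10000 or 20000 cells per sample, with 3 libraries at each number. The remaining 2 libraries held bulk liver tissue, the control of the series. All libraries were made by SMART-seq v4, a full-length cDNA method for small RNA amounts that primes on poly(A) tails. Age, sex and strain are not in the labels, and neither is the animal behind each library; p therefore refers to the spread among these libraries, part of which may be technical.

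Neutrophils are short-lived phagocytes that mature in bone marrow and make their granule proteins in a fixed order. Proteases and myeloperoxidase of the primary granules are transcribed in promyelocytes. Camp, Ngp and the lactoferrin gene Ltf, of the secondary granules, are transcribed in myelocytes and metamyelocytes and are shut off before the cell leaves the marrow. Mmp9, of the tertiary granules, follows later, and S100a8, S100a9, Csf3r and Cxcr2 remain expressed in circulating neutrophils. In liver, neutrophils lie in the sinusoids beside Kupffer cells, monocytes and lymphocytes. Monocytes also transcribe S100a8, S100a9 and Csf3r, so that these RNAs are not private to neutrophils.

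Levels of a gene are given in CPM, counts scaled to library size with TMM factors (trimmed mean of M values), and levels of different genes are compared in TPM, which are scaled by transcript length. Total counts ran from 6723357 to 14496314 in the sorted libraries and were 7605290 and 8034138 in the bulk libraries. The 10 genes together took 0.1104 to 0.189% of all counts in sorted libraries, against 0.000316% and 0.000485% in bulk liver. Library pairs within a group differed beyond sampling noise (chi-square per degree of freedom 1.56 for the bulk pair and 2.31 to 14.0 for sorted pairs). No library was thus a copy of another, but these values do not tell separate animals from repeats of the same preparation. Hepatocyte markers summed to 86.2 to 142 CPM in sorted libraries and to 104886 and 107197 CPM in bulk liver. Monocyte markers, 13 genes led by Lyz2, summed to 10502 to 12755 CPM in sorted libraries and to 325 and 342 CPM in bulk liver. 

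Sorted cells were compared with bulk liver first. Of the 10 genes, 7 were higher in sorted cells and 0 were lower (edgeR quasi-likelihood test, Benjamini-Hochberg adjusted p under 0.05). Over the 16294 genes tested, 41.8% were called higher and 38.5% lower, together 80.3%. The median log2 fold change was 7.44 over the 10 genes and 0.17 over all genes tested. With the genes that lacked a bulk count set at their lower bound, the median of the 10 was 7.33. For 7 of the 10 every sorted library lay above both bulk libraries, as was so for 40.6% of all genes tested. Sorting, sample handling and RNA amount differed together between these groups and cannot be told apart, nor can fewer cells of a type be told from less RNA per cell. Scaled by library totals alone, the median of all genes moved from 0.17 to 1.37 and the calls from 6806 higher and 6273 lower to 10738 higher and 3654 lower, so that 74.6% of calls were higher against 52.0%. All 7 genes were called under both scalings, and Ly6g was added under library totals (log2 fold change 5.68, adjusted p = 0.0351 in edgeR).

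S100a8 and S100a9 encode the calcium-binding proteins that pair as calprotectin, the main cytosolic protein of neutrophils, which chelates zinc and manganese and signals through Tlr4. Both genes lie on chromosome 3 of GRCm38, S100a8 (ENSMUSG00000056054) at 90668978 to 90670035 on the plus strand and S100a9 (ENSMUSG00000056071) at 90692632 to 90695721 on the minus strand, 22597 bases apart. S100a8 stood at 179, 315 and 481 CPM in the lowest, median and highest sorted library and at 1.07 and 2.31 CPM in the bulk libraries. S100a9 ran from 196 through a median of 332 to 491 CPM in sorted libraries and was at 1.87 and 1.03 CPM in bulk. No sorted library came near the bulk values of either gene. The log2 fold changes were 7.47 (SE 0.39; adjusted p = 3.9e-10) for S100a8 and 7.81 (SE 0.40; adjusted p = 2.8e-10) for S100a9 in edgeR's quasi-likelihood test. Without bulk replicate 2 that of S100a8 was 8.20. The bulk values rest on 4 and 9 counts of S100a8 and on 7 and 4 counts of S100a9. The ratios of pooled CPM with their 95% counting intervals were 180 (105 to 339) and 228 (127 to 457).

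The sequence upstream of each of the pair is shown because their levels moved together across libraries, as described further on. Capitals mark the letters of a C/EBP motif (TTGCNNAA) or a PU.1 motif (GAGGAA), searched on both strands; both factors drive granulocyte genes. The runs come from RefSeq on GRCm38.p6, are written 5′ to 3′ on the strand of the gene, begin 250 bases before the RefSeq start, and end where the gene begins in RefSeq or GENCODE, whichever start is farther upstream. They are S100a8 at chr3:90668821-90668977 on the plus strand and S100a9 at chr3:90695722-90695971 on the minus strand.
S100a8: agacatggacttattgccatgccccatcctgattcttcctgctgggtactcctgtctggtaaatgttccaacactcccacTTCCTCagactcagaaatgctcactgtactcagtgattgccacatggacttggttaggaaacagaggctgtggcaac
S100a9: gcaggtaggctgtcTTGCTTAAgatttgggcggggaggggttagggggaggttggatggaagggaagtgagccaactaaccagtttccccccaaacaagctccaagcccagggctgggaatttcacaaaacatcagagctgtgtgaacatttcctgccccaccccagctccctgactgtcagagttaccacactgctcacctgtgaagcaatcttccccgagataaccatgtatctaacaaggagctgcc
In the whole window of 250 bases S100a8 held 2 PU.1 matches, at -170 to -165 and -36 to -31 from the RefSeq start, the second next to a TATA box (TATAAA) at -30 to -25. S100a9 held 1 C/EBP match, at -236 to -229. Among 32851 RefSeq promoters of this length, 9.56% held the C/EBP letters, 23.3% the PU.1 letters and 12.4% the TATA letters. A match is a description of the letters and not a bound site.

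Retnlg, which encodes a resistin-like secreted protein of mouse granulocytes (ENSMUSG00000022651, chromosome 16, 48872621 to 48874496), ran from 12.9 through a median of 25.4 to 38.5 CPM in sorted libraries. It had 0 and 1 counts in the bulk libraries, so its ratio of 192 has a counting interval of 34.4 to 7568. Mmp8, the neutrophil collagenase stored in secondary granules (ENSMUSG00000005800, chromosome 9, 7558456 to 7568485), ran from 51.8 through 61.2 to 95.8 CPM, against 1 and 0 counts in bulk liver (ratio 502, counting interval 90.1 to 19837). Mmp9, the gelatinase of tertiary granules (ENSMUSG00000017737, chromosome 2, 164940780 to 164955850), ran from 257 through 295.4 to 401 CPM in sorted libraries. Its bulk values were apart, at 0.536 and 3.33 CPM from 2 and 13 counts. All 3 genes were higher in every sorted library than in both bulk libraries. Their log2 fold changes were 7.41 (SE 0.71) for Retnlg, 8.83 (SE 0.64) for Mmp8 and 7.26 (SE 0.23) for Mmp9, with adjusted p of 3.2e-08, 2.8e-09 and 1.2e-15 in edgeR. These sizes depend on single bulk libraries. Without bulk replicate 1, which held the only bulk count of Mmp8, they were 6.56 for Retnlg, 12.38 for Mmp8 and 6.56 for Mmp9, and without bulk replicate 2 they were 10.96, 7.93 and 9.18.

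Csf3r encodes the receptor of granulocyte colony-stimulating factor, which drives granulocyte production (ENSMUSG00000028859, chromosome 4, 126024550 to 126044440). It stood at 224, 254 and 289 CPM in the lowest, median and highest sorted library and at 2.41 and 2.82 CPM in the bulk libraries. Its sorted values spread least of the 10 genes, with a coefficient of variation of 10.0%. Csf3r rose by 6.62 on the log2 scale (SE 0.17; edgeR quasi-likelihood test, adjusted p = 4.6e-18), and the ratio of pooled CPM was 99.4 (counting interval 64.4 to 163). Cxcr2, the chemokine receptor that brings neutrophils out of marrow and into tissue (ENSMUSG00000026180, chromosome 1, 74153989 to 74161246), ran from 40.5 through 46.4 to 60.2 CPM in sorted libraries, against 1 and 0 counts in bulk liver. It rose by 8.40 (SE 0.45; edgeR, adjusted p = 8.3e-13), by 11.95 without bulk replicate 1, which held the only bulk count, and by 7.498 without bulk replicate 2. Neither receptor gene overlapped between sorted and bulk libraries.

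The 3 genes that missed the threshold were Ly6g, Camp and Ngp. Ly6g encodes the GPI-anchored protein against which antibodies that define or deplete mouse neutrophils are raised (ENSMUSG00000022582, chromosome 15, 75155240 to 75159126). It ran from 0 through a median of 0.493 to 2.99 CPM in sorted libraries, with 96 counts in all 12, and had 0 counts in both bulk libraries. With the limit that a count of 0 allows taken as 3 counts over the bulk pair, or 0.393 CPM, its pooled level was at least 1.90-fold higher (adjusted p = 0.131 in edgeR). This defining marker was thus near the floor in libraries whose S100a8 was at 179 CPM or more, while 12 of 12 sorted libraries held counts of the other granule and receptor genes except Camp and Ngp. Ly6g reads can be shared with other Ly6 genes on chromosome 15, and no source used here says how the authors counted such reads.

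**Figure D1:**
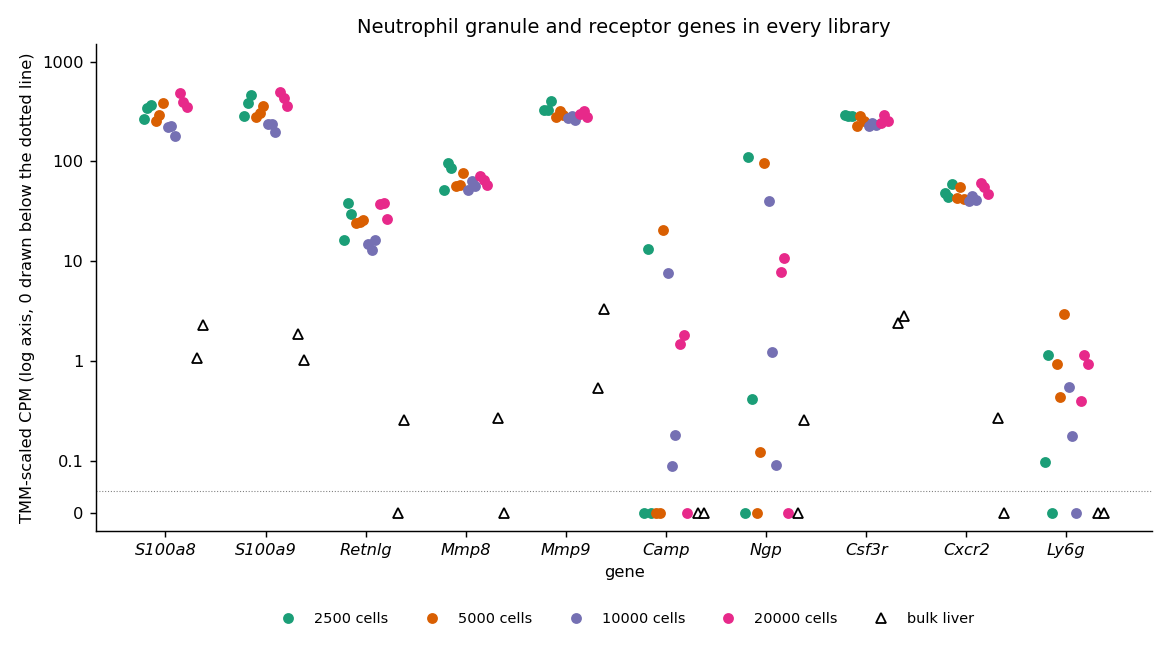
TMM-scaled CPM of the 10 genes in all 14 libraries on a log axis, with sorted libraries as filled points coloured by cell number and bulk libraries as open triangles; values of 0 are drawn below the dotted line. For S100a8, S100a9, Retnlg, Mmp8, Mmp9, Csf3r and Cxcr2 all 12 sorted libraries lie above both bulk libraries, whereas Camp, Ngp and Ly6g spread down to 0.

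Camp and Ngp encode cathelicidin, an antimicrobial peptide precursor, and neutrophilic granule protein, a cystatin-like relative of it. Both lie on chromosome 9, Camp (ENSMUSG00000038357) at 109847379 to 109849617 on the minus strand and Ngp (ENSMUSG00000032484) at 110419747 to 110423012 on the plus strand, 570130 bases apart. The upstream runs of these 2 genes are shown because both were present in the same few libraries; the source, limits and capitals are as for S100a8 and S100a9, and they are Camp at chr9:109849618-109849706 on the minus strand and Ngp at chr9:110419558-110419746 on the plus strand.
Camp: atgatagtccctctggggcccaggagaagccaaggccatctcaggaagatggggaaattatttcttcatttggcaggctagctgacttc
Ngp: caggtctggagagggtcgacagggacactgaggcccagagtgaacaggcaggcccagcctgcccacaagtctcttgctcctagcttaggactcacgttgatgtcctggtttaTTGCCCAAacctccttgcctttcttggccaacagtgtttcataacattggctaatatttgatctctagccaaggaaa
Within the full 250 bases Ngp held 2 C/EBP matches, at -138 to -131 and -11 to -4, and Camp held 0 matches to any of the 3 motifs. Of all 10 genes, 9 were matched in the promoter table (not Mmp9).

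In sorted libraries Camp and Ngp were either plain or nearly missing. Among libraries of 2500 cells Ngp was at 0, 110 and 0.413 CPM in replicates 1, 2 and 3, and among those of 5000 cells at 0, 0.123 and 95.3 CPM. At 10000 cells it was at 39.8, 1.24 and 0.0910 CPM, and at 20000 cells at 7.75, 10.7 and 0 CPM. The high values thus sat in 1 replicate of each of the 3 lower cell numbers and in 2 replicates of 20000 cells. Both the highest library and the mean of Ngp fell with rising cell number (means 36.8, 31.8, 13.7 and 6.15 CPM). At the 3 lower cell numbers the mean rests on 1 library, and the slope of Ngp on log2 cell number did not pass (-0.88, SE 0.73, adjusted p = 0.716 in edgeR). Camp, at a lower level, stood in the same libraries. It was at 13.3 CPM in replicate 2 of 2500 cells, 20.5 in replicate 3 of 5000, 7.68 in replicate 1 of 10000, and 1.47 and 1.83 in replicates 1 and 2 of 20000 cells. In the other 7 sorted libraries Camp reached at most 0.182 CPM, and 5 of the 12 had 0 counts. The 5 libraries with at least 20 Ngp counts held 99.3% of the Ngp counts and 99.4% of the Camp counts of all sorted libraries, but 46.9% of S100a8 counts, 45.7% of S100a9 and 44.5% of Mmp8. That split was made after the values were seen and is a description only.

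Within those 5 libraries the number of Camp counts per Ngp count lay between 0.121 and 0.215, while Ngp itself ran from 58 to 1250 counts. Ltf, which is not among the 10 genes but shares their granule, had 99.2% of its sorted counts in the same libraries. It was at 98.6, 65.8, 26.1, 6.54 and 10.7 CPM in the order given for Camp, or 0.656 to 1.00 Ltf counts per Ngp count. Lcn2, the siderophore-binding lipocalin of secondary granules, was present in all 12 sorted libraries (9.22 to 39.9 CPM), and was highest in replicate 2 of 2500 cells (39.9) and replicate 3 of 5000 cells (33.8), where Ngp was also highest. When 8785 genes with a mean of at least 10 CPM, pseudogenes and gene models without a proper name left out, were ordered by likeness to Ngp across the 12 libraries, a step added after the values were seen, Ltf was at rank 1 and Lcn2 at rank 4. Haus4 and Ppm1d were at ranks 2 and 3 (r = 0.84 and 0.81, against 0.79 for Lcn2). No gene of the granule lists was at ranks 5 to 10. After the 2 libraries named, Lcn2 was highest in replicate 3 of 2500 cells (20.6 CPM), which had 4 Ngp counts and is not among the 5. Ly6g was highest in replicate 3 of 5000 cells (2.99 CPM), and the 5 libraries held 71.9% of its counts. No measure of cell state was taken, so whether these libraries held more immature neutrophils was not tested.

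Primary granule genes were low, and Mpo and Elane did not share this pattern. Mpo, myeloperoxidase, had 79 counts in replicate 3 of 20000 cells (9.16 CPM), where Ngp and Camp had 0 counts, and was at 0 in 8 of the 12 sorted libraries. Elane, neutrophil elastase, had 7 counts there and 0 in the other 11. In the 5 libraries with Ngp, Mpo and Elane had 0 counts. Prtn3, proteinase 3, was highest in replicate 2 of 2500 cells (1.67 CPM, 19 counts), where Ngp was also highest, and next in replicate 2 of 10000 cells (13 counts), which is not among the 5. Fcnb, ficolin B, was highest in replicate 1 of 10000 cells (0.832 CPM, 9 counts), one of the 5, and had 0 counts in replicate 2 of 2500 cells. Ctsg and Ms4a3 were highest in replicate 3 of 20000 cells, with 6 and 3 counts. Of 6 primary granule genes on a list written down for this comparison, 1 passed the filter on low counts (Prtn3, log2 fold change -1.26, SE 0.92, adjusted p = 0.213 in edgeR).

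**Figure D2:**
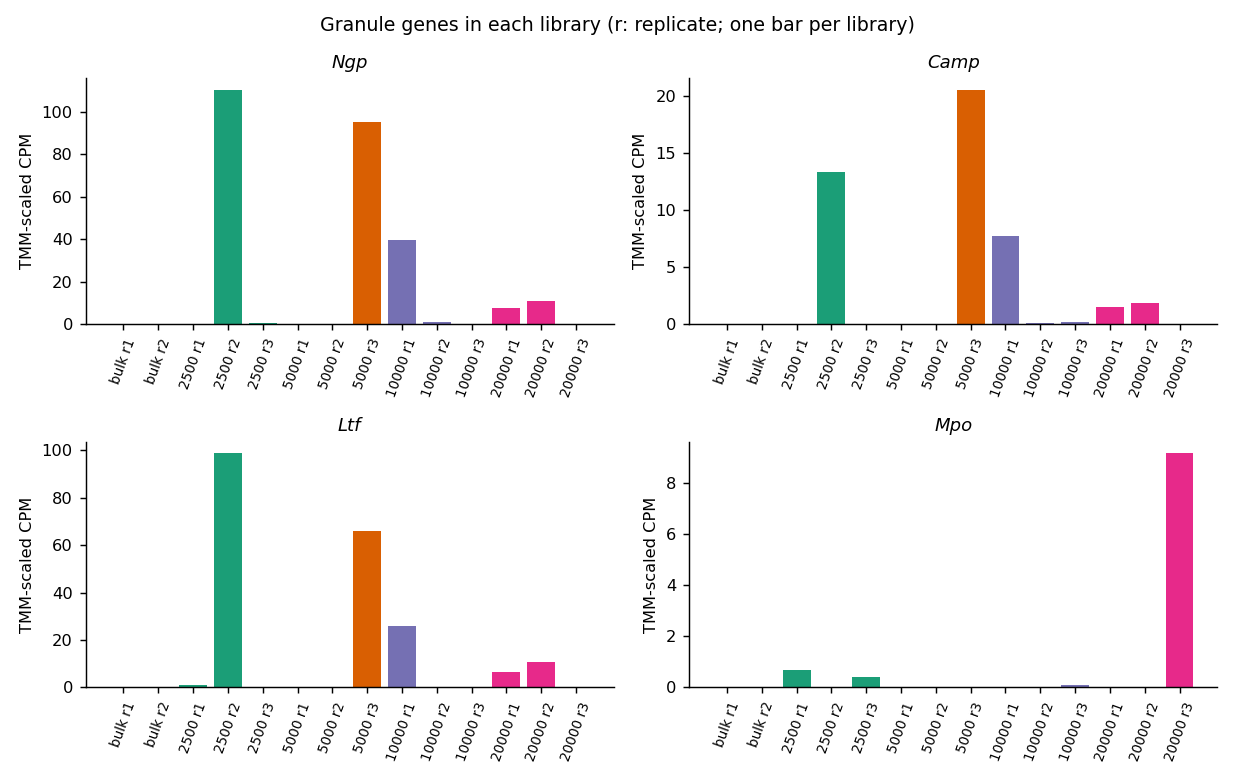
Bars give the TMM-scaled CPM of Ngp, Camp, Ltf and Mpo in each of the 14 libraries, grouped by cell number (r, replicate). Ngp, Camp and Ltf rise in the same 5 sorted libraries, from 7.75 to 110 CPM for Ngp, and Mpo reaches 9.16 CPM in replicate 3 of 20000 cells, where Ngp is at 0.

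The spread of Camp and Ngp set their tests. Their coefficient of variation over the 12 sorted libraries was 178% each, where genes of similar level had medians of 25.5% and 12.5%. Against bulk liver Camp, with 0 bulk counts, was at least 10.05-fold higher over the pooled libraries, and Ngp, with 1 bulk count, had a ratio of 178 (counting interval 31.8 to 7014). The quasi-likelihood test of edgeR gave adjusted p of 0.432 for Camp and 0.371 for Ngp. Only 7 of 12 sorted libraries lay above both bulk libraries for each gene. Without the 5 libraries, 8 of the 10 genes passed the filter on low counts (not Camp or Ly6g), and the same 7 were called. Neither gene differed between 2500 and 20000 cells beyond its spread (log2 differences 2.03, SE 2.57, for Camp and 2.59, SE 2.60, for Ngp), and without replicate 2 of 2500 cells both signs turned, to -6.58 and -4.88.

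The next comparisons asked whether the number of sorted cells, the variable the study set, moved these genes. On the slope with log2 cell number, 0 of 10 genes passed in edgeR (background 0.0811% of 14795 genes, 0.0608% upward and 0.0203% downward). Between any of the 4 cell numbers 0 passed (background 0.297%), and between 2500 and 20000 cells 0 passed (background 0.419%, 0.0811% higher and 0.338% lower at 2500 cells). At an unadjusted p under 0.05 the counts were 1, 5 and 1 genes, in that order, where 10.7%, 10.8% and 13.3% of all genes tested had such a p. DESeq2 called 0, 4 and 0 of the 10 (background 0.858%, 2.09% and 1.80%), and limma-voom 0, 2 and 0 (background 0.101%, 0.223% and 0.155%). DESeq2 gave no adjusted p for Ly6g, Camp and Ngp here and so could not call them. Its background shares count such genes as tested. The 4 genes of DESeq2 in the test of any difference were S100a8, S100a9, Retnlg and Mmp9 (adjusted p = 0.0032, 0.0018, 0.00040 and 0.0083), and the 2 of limma-voom were S100a8 and S100a9 (adjusted p = 0.0374 and 0.0397). Thus the call for these genes depended on the tool, and edgeR's adjusted p were 0.192, 0.188, 0.1098 and 0.1098.

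The values behind these tests were lowest at 10000 cells. S100a8 was at 269, 342 and 363 CPM in the libraries of 2500 cells and at 256, 288 and 386 CPM in those of 5000. It was at 222, 225 and 179 CPM at 10000 cells and at 481, 394 and 352 CPM at 20000. S100a9 was at 282, 387 and 457 CPM at 2500 cells, at 279, 307 and 360 at 5000, at 236, 236 and 196 at 10000, and at 491, 430 and 358 at 20000. For both genes every library of 10000 cells lay below all 9 other sorted libraries, which held for 0.764% of all genes tested. That cell number and direction were picked out after the values were seen. The share counts no other cell number or direction, so it is a description only. S100a9 also followed S100a8 across the sorted libraries (Pearson r = 0.97), so these genes are not separate observations. Retnlg was at 14.7, 12.9 and 16.5 CPM at 10000 cells and overlapped with the other cell numbers through 1 library of 2500 cells (16.3 CPM). Its other libraries were at 38.5 and 29.9 CPM at 2500 cells, 24.0 to 26.0 at 5000, and 37.1, 38.4 and 26.7 at 20000.

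The longer messages differed less in size. Mmp9 averaged 352 ± 42.3, 297 ± 18.7, 270 ± 12.97 and 298 ± 19.6 CPM in rising order of cell number (SD, n = 3 each), and Csf3r averaged 287 ± 1.11, 254 ± 28.1, 233 ± 9.23 and 261 ± 23.9 CPM. Of the 10 genes, 8 had their lowest mean at 10000 cells (all but Camp and Ngp, whose lowest was at 20000), against 23.9% of all genes tested. For 5 of the 10 every library of 10000 cells lay below every library of 20000 cells (background 9.79%), and for 4 when TMM factors came from the 12 sorted libraries alone, where Csf3r overlapped. These shares, too, refer to a cell number picked out after the values were seen. The mean at 10000 cells over the mean of the other sorted libraries was -0.74 on the log2 scale for S100a8 and S100a9 and -0.98 for Retnlg, whose exons span 694, 522 and 593 bases. It was -0.20 for Csf3r, -0.22 for Mmp9, -0.26 for Mmp8 and -0.27 for Cxcr2, whose exons span 2425 to 3609 bases. Over 318 genes with exons under 1000 bases and a mean of at least 10 CPM, the median of the same ratio was -0.06 and 67.6% were below 0, against a median of 0.00 and 49.3% over all 9384 genes of that level. The part of message length in the low values was not tested.

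Leaving out single libraries of 2500 cells changed calls in the test of any difference. Without replicate 1 of 2500 cells S100a9 and Retnlg passed (adjusted p = 0.0234 and 0.0031), and without replicate 2 Retnlg passed (adjusted p = 0.0335).

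**Figure D3:**
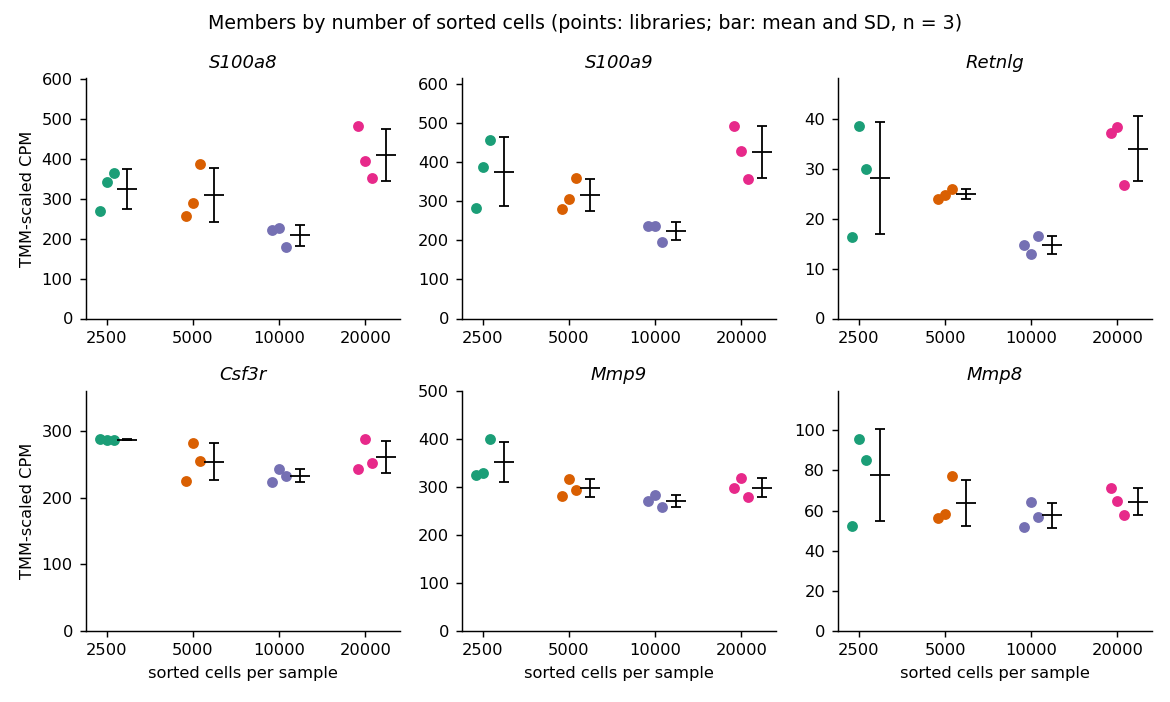
TMM-scaled CPM of 6 genes in each sorted library (points) by number of sorted cells, with the mean and SD of 3 libraries beside them. S100a8 and S100a9 lie at 179 to 236 CPM at 10000 cells, below every other sorted library, while Csf3r lies at 224 to 243 CPM there and overlaps with the libraries of 5000 cells.

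Between 2500 and 20000 cells Mmp9 came closest to a call. All 3 libraries of 2500 cells (325, 330 and 401 CPM) lay above all 3 of 20000 cells (297, 318 and 279 CPM), with a log2 difference of 0.25 (SE 0.08; unadjusted p = 0.0048, adjusted p = 0.157, edgeR quasi-likelihood test). It was the only one of the 10 whose libraries did not overlap between these inputs, and 16.5% of all genes tested did not overlap. The log2 differences of the other abundant genes were -0.32 (SE 0.18) for S100a8, -0.17 (SE 0.18) for S100a9, -0.26 (SE 0.22) for Retnlg, 0.15 (SE 0.08) for Csf3r, -0.09 (SE 0.13) for Cxcr2 and 0.28 (SE 0.19) for Mmp8. None of these 6 reached 2 SE. In the same comparison the Kupffer cell genes Cd5l and C1qa were higher at 2500 cells (log2 difference 0.67 and 0.62, adjusted p = 0.0436 and 0.0285 in edgeR), among 8 of that list. Of 13 monocyte genes, Ly6c2 and Ms4a6c were lower (-0.31 and -0.38, adjusted p = 0.0334 each), and Ly6c2 also differed between any of the inputs (adjusted p = 0.0117). The part of the mix of myeloid cells in the values of the 10 genes was not tested.

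Among themselves the abundant genes split into a pair that moved together and others that moved less. Over the 12 sorted libraries S100a9 followed S100a8 (Pearson r = 0.97, Spearman rho = 0.95, permutation tests with 100000 resamples, two-sided, adjusted p = 0.00011 and 0.00044 over 11 relations). Without the 2 libraries farthest from the S100a8 median, replicate 1 of 20000 and replicate 3 of 10000 cells, r was 0.94. With each value centred on the mean of its cell number, r was 0.92 (adjusted p = 0.00055, permutation). Retnlg had r = 0.85 and rho = 0.80 (adjusted p = 0.00313 and 0.0117 by permutation), r = 0.86 without those 2 libraries and 0.48 when centred (adjusted p = 0.207), so within cell numbers the relation did not pass the test. Cxcr2 had r = 0.65 and rho = 0.66 (adjusted p = 0.0526 and 0.0485, permutation), 0.43 without the 2 libraries. Mmp8, Mmp9 and Csf3r gave r of 0.57, 0.49 and 0.45 and rho of 0.64, 0.52 and 0.45 (adjusted p of r = 0.0968, 0.159 and 0.193 by permutation; of rho = 0.051, 0.143 and 0.192). Centred on cell number, r was 0.77 for Mmp8 (adjusted p = 0.0145, permutation), 0.46 for Mmp9 and 0.07 for Csf3r. On log2 TPM with a pseudocount of 1, r was 0.96 for S100a9, 0.83 for Retnlg and 0.57 for Cxcr2. It was 0.46 for Mmp8, 0.32 for Mmp9 and 0.18 for Csf3r on that scale. The libraries of Camp and Ngp fall in separate clusters, so a correlation describes them poorly. Over the 12 libraries their r with S100a8 was 0.30 for Camp and 0.37 for Ngp. Neither passed (adjusted p = 0.37 and 0.289, permutation). Centred on cell number, where the clusters remain, r with S100a8 was 0.76 for Ngp (adjusted p = 0.0251, permutation) and 0.65 for Camp (adjusted p = 0.0697).

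Monocyte genes were run beside them. Ly6c2, a surface antigen of classical monocytes, had r = 0.78 and rho = 0.80 with S100a8 (adjusted p = 0.0104 and 0.0117, permutation), r = 0.68 without the 2 farthest libraries and 0.34 when centred (adjusted p = 0.405). Lyz2, lysozyme, had r = 0.67 and rho = 0.68 (adjusted p = 0.0438 and 0.0485), 0.65 without those libraries and 0.48 when centred. Ccr2, the chemokine receptor of the same monocytes, had r = -0.09 and rho = -0.13 (adjusted p = 0.78 and 0.683, permutation). These values moved with the scaling. On log2 TPM with a pseudocount of 1, r was 0.71 for Ly6c2, 0.29 for Lyz2 and -0.51 for Ccr2. The genes most like S100a8 among the same 8785 were S100a9 (r = 0.97), Rps20 (0.93), Rpl39 (0.93), Fundc2 (0.92) and Rpl23 (0.91), given as a description over 12 libraries that share preparation and scaling. Rps20, Rpl39 and Rpl23 encode ribosomal proteins, and reads of such genes can be shared with their pseudogenes. These 3 averaged 42.4, 26.2 and 24.1 CPM at 10000 cells and 62.5, 40.0 and 34.2 CPM at 20000 cells, so they too were lower at 10000 than at 20000 cells.

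**Figure D4:**
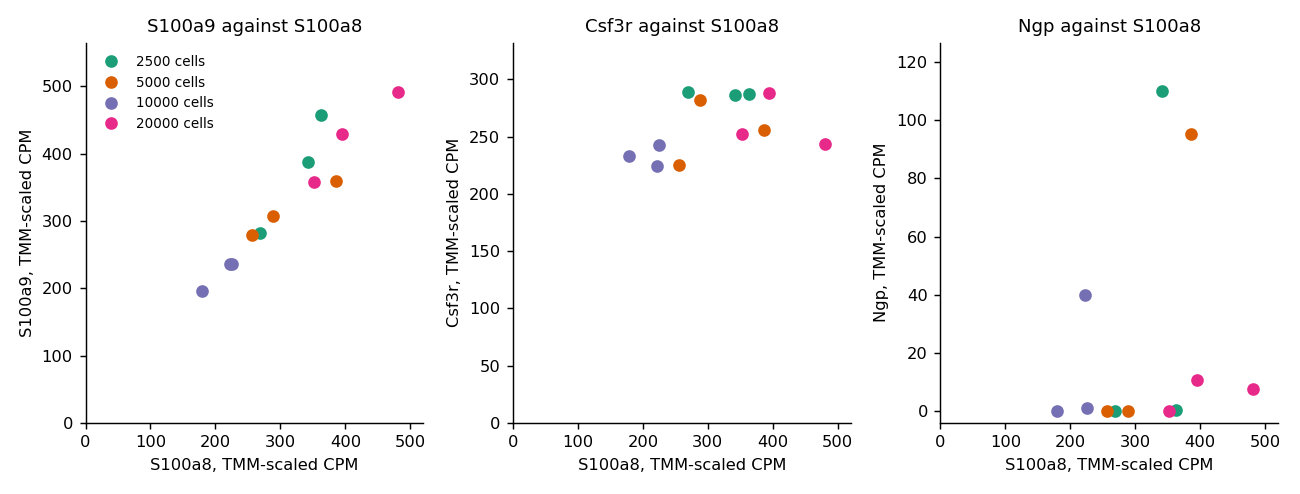
S100a9, Csf3r and Ngp against S100a8 in the 12 sorted libraries (TMM-scaled CPM on both axes, colour by cell number). S100a9 rises with S100a8 from 196 to 491 CPM, Csf3r stays between 224 and 289 CPM, and Ngp is near 0 in 7 libraries with S100a8 at 179 to 363 CPM, while the 3 libraries highest in S100a8 (386, 394 and 481 CPM) are among the 5 with Ngp. The rest of those 5, replicate 2 of 2500 and replicate 1 of 10000 cells, have S100a8 at 342 and 222 CPM, inside the range of the 7.

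In TPM, S100a8 and S100a9 were level with each other and above the rest. S100a8 was at 1330 ± 335 TPM and S100a9 at 1307 ± 342 TPM (SD, n = 12), with S100a8 the higher in 8 of 12 libraries. The log2 ratio of S100a8 to S100a9 in TPM was 0.03 ± 0.10 in sorted libraries (range -0.21 to 0.22) and -0.69 and 0.93 in the bulk libraries, where it rests on 4 to 9 counts of each gene. The difference of -0.09 between sorted and bulk gave p = 0.451 in a two-sided exact permutation test over 91 splits, whose smallest possible p is 0.011. Bulk replicates 1 and 2 lay on either side of all sorted libraries, and without replicate 2 the difference turned to 0.72. Mmp9 came next at 158 ± 21.8 TPM, then Csf3r at 132.8 ± 14.3, Retnlg at 76.4 ± 26.7, Mmp8 at 38.6 ± 7.87 and Cxcr2 at 28.8 ± 3.83 TPM. Each of these stood above the next in all 12 libraries, except Retnlg, which was above Mmp8 in 11. Ngp had a mean of 28.1 and a median of 1.09 TPM, and Camp a mean of 8.22 and a median of 0.22, so for both the mean describes no library well. Ngp was below Cxcr2 in 9 of 12 libraries. Ly6g had the lowest mean, 1.68 ± 1.75 TPM, but Camp was above it in 6 libraries and below it in 5.

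The coefficients of variation in sorted libraries were 28.0% for S100a8, 28.1% for S100a9 and 36.2% for Retnlg. Genes of similar level had medians of 6.12%, 6.13% and 11.9%. Mmp8 varied by 21.1%, Cxcr2 by 15.0%, Mmp9 by 12.5% and Csf3r by 10.0%, against medians of 8.73%, 9.67%, 6.15% and 6.20%. All 9 genes for which this could be set side by side, Camp and Ngp included, thus varied more than the median gene of their level, and the lowest of them, Cxcr2, varied more than 90.7% of such genes.

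The surroundings of the 10 genes in the sorted cells were read from lists of related genes. Of 10 further genes of secondary and tertiary granules, 8 were higher than in bulk liver and 1 was lower (edgeR, adjusted p under 0.05). Over all genes tested 41.8% were called higher and 38.5% lower, the shares to set beside this list and those that follow. Lyz2 rose from 303 to 8534 CPM (log2 fold change 4.81, SE 0.08) and Chil3, a chitinase-like protein that monocytes also make, reached 291 CPM against 1 bulk count. Hp, haptoglobin, which hepatocytes secrete, fell by 4.93 on the log2 scale, and Ltf missed the threshold (adjusted p = 0.386). Of 15 further surface receptors of neutrophils, 12 were higher and 1 lower. Fcgr3, a receptor for the constant part of IgG, rose from 16.6 to 104 CPM, while Mgst1 fell by 7.67 on the log2 scale. Of 12 other neutrophil markers 8 were higher and 3 lower. Anxa1, annexin A1, rose from 12.1 to 181 CPM and Hdc, histidine decarboxylase, from 8.42 to 31.4, while Lrg1 fell by 5.97 and Wfdc21 fell by 7.45. The median log2 fold changes of these 3 lists were 6.85, 4.01 and 2.90, beside 0.17 for all genes tested and 7.04 for the 13 monocyte genes, all 13 of which were higher. Lyz2 and Chil3 are on both the granule list and the monocyte list, so those lists are not separate.

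Of 6 transcription factors of granulocyte development, 4 were higher, among them Spi1, which encodes PU.1 (from 16.7 to 306 CPM, log2 fold change 4.19), Cebpb (1.43) and Cebpd (2.18), and 2 were lower, beside 41.8% higher and 38.5% lower over all genes tested. Cebpa, which hepatocytes also express, fell by 4.61 on the log2 scale. Cebpe, the factor required for secondary granule genes, fell by 2.42 (SE 0.45, adjusted p = 5.9e-05 in edgeR) and stood at 0.267 to 1.36 CPM in sorted libraries. Its values in the 5 libraries with Ngp, 0.267 to 1.06 CPM, overlapped with those of the other 7, 0.273 to 1.36 CPM.

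Ligands of neutrophil receptors were sparse in sorted cells, the 7 on the list summing to 5.64 to 10.4 CPM against 513 and 550 CPM in bulk liver. Not all 7 are ligands of Csf3r or Cxcr2, and those named next made up little of the bulk sum. Csf3, the ligand of Csf3r, had 7 counts over the 12 sorted libraries and 0 in bulk liver. Of the ligands of Cxcr2, Cxcl2 rose from 0.530 to 3.37 CPM (log2 fold change 2.59, adjusted p = 0.0159 in edgeR) and Ppbp, a platelet chemokine, to 2.10 CPM from 2 bulk counts. Cxcl1 had 5 counts in sorted libraries and stood at 11.2 CPM in bulk, and Cxcl5 had 0 counts in all 14 libraries. Among 5 tested receptors of the S100 pair, 4 were higher and 1 lower, beside 41.8% higher and 38.5% lower over all genes tested. Emb rose from 1.82 to 240 CPM and Tlr4 by 3.00 on the log2 scale, and Bsg fell by 2.45. The 5 inhibitors of matrix metalloproteinases summed to 64.9 to 90.6 CPM in sorted libraries and to 99.2 and 109 CPM in bulk liver. Of these, Timp2 was higher (0.64) and Timp3 and Reck were lower (-3.76 and -0.79). No gene of these lists of ligands, receptors, inhibitors, granules or transcription factors passed in the 3 tests on cell number in edgeR.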

How the data were processed

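Processing notes of the submitters name featureCounts 1.5.1, STAR 2.5.2b, DESeq2 1.34.0, RSEM 1.3.0 and FastQC 0.11.5 with the build GRCm38, without role, order or strand setting. The authors deposited raw counts and TPM for 48794 genes, 1 column per library; another deposited table, of transformed values, was not used. The 14 columns were mapped by name, and 0 columns were left unmapped. Symbols and coordinates came from GENCODE M21. Counts were tested with edgeR 4.0.16 in R 4.3.3 (TMM, filterByExpr, robust quasi-likelihood F test, Benjamini-Hochberg threshold 0.05), over all 14 libraries for sorted against bulk and over the 12 sorted libraries for cell number. The standard error is the log2 fold change over the square root of F. Alternatives were DESeq2 1.42.0 on counts and limma 3.58.1, with voom on counts and on log2 TPM with a pseudocount of 1 or 0.1. Correlations used log2 CPM with a prior count of 2. Intervals cover counting error only. Scripts were tested on simulated data. Genes named outside the 10 were the 3 list members highest in sorted and the 2 highest in bulk libraries, list members past the threshold between inputs, and the 5 genes most like S100a8. A gene that this rule names is not reported here. Tlr4, Ltf, Lcn2, Elane, Cebpe, Csf3, Cxcl5, Haus4 and Ppm1d were named after their values were seen. The 10 genes and all lists were chosen with earlier results of these data known. Libraries were not paired by replicate number, because no source ties equal numbers to one animal.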

Additional observations from a re-analysis of the deposited data

How the results depend on the processing

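Of the 10 genes, the 7 calls against bulk liver held under every alternative run. The 3 genes that missed the threshold did not stay so in all runs. With no low-count filter all 10 were called, as were 14638 of 29250 genes tested. Adjusted p in edgeR were then 0.013 for Ly6g, 6.2e-10 for Camp and 4.5e-44 for Ngp. Ly6g also passed under library totals and in limma on log2 TPM with a pseudocount of 1 or 0.1 (adjusted p = 0.0464 and 0.0143). The count of genes called between any of the inputs went from 0 to 4 with DESeq2, 2 with limma-voom and 7 with no low-count filter, and ranged from 0 to 2 with single libraries left out. Between 2500 and 20000 cells it went to 3 with no filter. Relations with S100a8 that passed numbered 4, and 2 without the 2 farthest libraries. Signs of slopes near 0 turned. With DESeq2, limma on TPM and without the 10000-cell libraries the slope of Ly6g was 0.0025, 0.20 and 0.14. With limma-voom the slopes of S100a9, Ly6g, Camp and Ngp were -0.0042, 0.30, 0.32 and 0.20, and the 2500-cell differences of Camp and Ngp -0.66 and -0.21. Without the 5 libraries with Ngp, a choice made on Ngp itself that fixes its own values and tests nothing about it, the slopes of S100a8, S100a9, Retnlg, Cxcr2 and Ngp were -0.048, -0.11, -0.060, -0.096 and 0.39, the 2500-cell differences of S100a9 and Cxcr2 0.046 and 0.19, and Ngp against bulk -0.27. Leaving out single libraries gave slopes of -0.019 to 0.099 for S100a8, -0.055 to 0.087 for S100a9, -0.056 to 0.13 for Retnlg, -0.025 to 0.058 for Cxcr2 and -0.17 to 0.20 for Ly6g. It gave 2500-cell differences of -0.57 to 0.017 for Retnlg, -6.58 to 2.70 for Camp and -4.88 to 3.35 for Ngp, and ratio differences of -0.90 to 0.72. The cause was not tested.

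Over all genes the calls on slope, any input and 2500 against 20000 cells were 12, 44 and 62. They were 127, 309 and 267 with DESeq2, 19, 605 and 397 with no filter, and 0, 9 and 6 without the 5 libraries. Limma-voom gave 23 for the last, the 10000-cell libraries left out gave 25 for each of the last 2, and limma on TPM gave 0 slopes. Single libraries left out gave 0 to 10, 20 to 104 and 19 to 67. With the replicate number as a replicate block, 7 of the 10 genes were called against bulk and 0 on cell number, the slope of Ly6g was 0.0054, and slopes called went to 0. Same-numbered libraries correlated at -0.10 to 0.09 over 18 pairs, and 3 of 12 correlated best with their own number. No pairing by number was seen, but one weaker than the spread among libraries could escape these correlations. Depth limits Ly6g, Camp and all bulk values, where 1 count is 0.131 CPM over both libraries.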

Other observations

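Markers of other granulocytes were read in the same libraries. Among eosinophil genes Il5ra, a receptor subunit for interleukin 5, stood at 32.8 ± 2.51 CPM (SD, n = 12) in sorted libraries against 2 bulk counts (log2 fold change 6.90, SE 0.32, adjusted p = 9.7e-14 in edgeR), and Siglecf, a sialic acid receptor of eosinophils, at 2.46 ± 1.11 CPM (log2 fold change 3.08, adjusted p = 0.0016). Ccr3, the eotaxin receptor, was at 1.79 ± 1.10 CPM and missed the threshold (adjusted p = 0.265). Il5ra is also carried by B-1 cells, so its level alone does not mark eosinophils. Of 7 mast cell and basophil genes Ms4a2, Fcer1a and Prss34 had 0 counts in all sorted libraries, and Cpa3, a mast cell protease, was at 0.436 ± 0.261 CPM. The summed eosinophil markers, mostly Il5ra, averaged 39.3, 34.5, 38.9 and 35.8 CPM at 2500, 5000, 10000 and 20000 cells. Their lowest sum was not at 10000 cells, where that of the 10 neutrophil genes was (1538, 1353, 1066 and 1556 CPM). That low point was not particular to the 10 genes. Monocyte markers were also lowest there (11128, 11706, 10960 and 12138 CPM). So were the lists of secondary and tertiary granule genes (9003, 9486, 8771 and 9691 CPM), surface receptors (1663, 1694, 1557 and 1772) and other neutrophil markers (389, 384, 373 and 417). Lyz2, which is on both the monocyte and the granule list, made up most of those 2 sums (8291, 8732, 8131 and 8981 CPM), so they are not separate. Of all genes tested, 23.9% had their lowest mean at 10000 cells. Dendritic and Kupffer cell markers were lowest at 20000 cells. None of the eosinophil, mast cell and basophil genes passed in the tests on cell number in edgeR.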
